A study of Mus musculus with 6 samples.

Results

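The genes described here encode proteins of ribosome biogenesis, including the subunits and factors of RNA polymerase I. They were taken from a list of 42 genes, and a gene was counted as measured if a probe set of the array named that gene and no other. By this rule 39 of the 42 were measured, out of 30738 genes with such a probe set, and each of the 39 had exactly 1. Nop56, Taf1d and Gnl3 lie in probe sets that also name another gene, such as a small nucleolar RNA (snoRNA) in one of their introns, and have no value here. The cells were LSK cells, which are lineage negative, Sca-1+ and Kit+ and contain the stem and multipotent progenitor cells of the bone marrow, and their RNA was measured on 6 arrays. The 3 KO arrays came from mice with both Ash2l alleles floxed at exon 4 and the MxCre transgene, and the 3 control arrays from mice with the same floxed alleles and no Cre. Ash2l is a core subunit of the complexes that methylate lysine 4 of histone H3. All of these mice, control mice included, were injected 3 times with an inducer of interferon, named poly(dIdC) in the sample labels and pIC in the study's methods, and marrow was taken at day 10. The study's methods give the age of the mice as 10 to 25 weeks. Mx1-Cre responds to interferon in many cell types and not in blood cells alone, and the sources do not tie an array to a single animal, so that the p-values measure the spread between samples.

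Ribosomes are built in the nucleolus. RNA polymerase I transcribes a long precursor rRNA there, small nucleolar ribonucleoproteins (snoRNPs) modify it, and a large set of assembly factors folds, cuts and exports the 40S and 60S subunits. Growing cells make ribosomes at a high rate, and the transcription factor Myc, which binds the E-box CACGTG, is known as an activator of many of these genes. The comparison of KO with control LSK cells asked whether these genes are expressed differently once Ash2l is deleted. Each array received 40 ng of total RNA and the arrays were normalized to each other, so that a signal is relative to the RNA of the sample. Fewer cells of a type and less RNA per cell cannot be told apart in such data, and the amount of ribosomal RNA itself is not measured by these probe sets.

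The E-boxes of the members' promoters are shown because they are the sites through which Myc is known to act on this group of genes. RefSeq promoter windows (assembly GRCm38.p6, 250 bases before to 50 after the start site) were at hand for 33 of the 39 members. The letters CACGTG, which read the same on both strands, occurred in 9 of these 33 windows (27.3%), against 8.91% of the windows of 17491 protein-coding genes. Each site is printed on the strand of the gene with up to 12 bases on either side and the E-box in capitals.
Nop2: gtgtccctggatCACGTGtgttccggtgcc
Rrn3, distal site: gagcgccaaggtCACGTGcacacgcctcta
Rrn3, proximal site: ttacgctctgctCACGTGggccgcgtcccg
Pes1: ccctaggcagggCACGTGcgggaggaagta
Wdr43: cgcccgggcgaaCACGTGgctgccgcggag
Nle1: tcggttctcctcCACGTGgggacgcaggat
Ltv1: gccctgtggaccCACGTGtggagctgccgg
Utp20: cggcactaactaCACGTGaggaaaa
Pno1: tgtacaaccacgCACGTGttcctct
Mybbp1a: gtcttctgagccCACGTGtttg

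In Nop2 and Rrn3 the sites lie before the start of the gene, 60 bases upstream in Nop2 (chr6:125131811-125131840, plus strand) and 215 and 48 bases upstream in Rrn3 (chr16:13780472-13780501 and chr16:13780639-13780668, plus strand). In the other 7 genes the E-box begins within the first 50 bases after the start site of the promoter table, which for Nle1 and Wdr43 lies inside the outermost end that RefSeq gives the gene. It begins, for example, at base 3 in Pes1 (chr11:3963965-3963994, plus strand) and at base 38 in Pno1 (chr11:17211540-17211564, minus strand). Ltv1 carries its site at base 29 (chr10:13193092-13193121, minus strand) and Mybbp1a at base 41 (chr11:72441355-72441376, plus strand). The remaining 3 are Utp20 (base 38; chr10:88826765-88826789, minus strand), Nle1 (base 24; chr11:82908355-82908384, minus strand) and Wdr43 (base 18; chr17:71616220-71616249, plus strand). Of 5 other motifs searched on both strands, none of which contains another, CCGGAAG (the ETS core) occurred in 30.3% of the member windows and 12.9% of the coding ones, and ATGGCGGC (a YY1-type motif) in 15.2% and 3.5%. The GC box GGGCGG was found in 63.6% of the member windows and 49.2% of the coding ones, the CCAAT box in 39.4% and 42.3%, and TATAAA in 6.06% and 14.8%. The coding windows were not matched to those of the members for base composition. These matches are descriptions of letters and not of bound sites.

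Before the values of the members, some facts of the arrays are needed. Ash2l had a log2 signal of 9.65, 9.63 and 9.65 on the KO arrays and of 10.76, 10.57 and 10.23 on the control arrays, a log2 fold change of -0.88 with a standard error of 0.15, and its probe set also reads the exons that remain after recombination. Control replicate 3 stood apart from the other control arrays, with correlations of 0.984 and 0.980 with them over all probe sets and of 0.989 with KO replicate 2. Its mean log2 signal over 19 interferon response genes was 9.21, within the KO range of 9.15 to 9.33 and above the 7.76 and 7.54 of control replicates 1 and 2. Over 19 mitosis genes it was 11.37, below 12.93 and 12.06 on those control arrays and above the KO range of 10.45 to 10.91. Of 9 measured genes of stem and progenitor cells, Kit ranged from 12.28 to 12.40 on the KO arrays and from 11.93 to 12.92 on the control arrays. At an unadjusted p under 0.05 Flt3 was lower in the KO cells (-1.22, without overlap) and Cd34 higher (0.84), with control replicate 3 at 15.32 for Cd34 and within the KO range of 15.14 to 15.38. Ly6a, which encodes Sca-1, was not analysed here, and the study reported its expression as increased in KO LSK cells. For CD34 the study reported a smaller change than the one given here. Among 14 markers of mature granulocytes 6 were higher at an unadjusted p under 0.05 in the KO cells, against 4.58% of all named genes, while 5 had fold changes below 0, down to -2.15 for Ngp, and the list mean lay between 9.02 and 10.24 on the KO arrays and between 6.88 and 9.001 on the control arrays. The means of 7 B cell markers were 8.07 to 8.93 on the KO arrays and 7.32 to 11.66 on the control arrays, lowest in control replicate 3. For 5 erythroid markers the means were 7.87 to 9.02 on the KO arrays and 9.13 to 10.08 on the control arrays. These markers did not go one way. Car1 (-3.66) and Tfrc (-1.28) were lower without overlap and Alas2 (0.52) higher without overlap, while Klf1 (-0.34) and Epor (-0.14) overlapped. The means of 6 megakaryocyte markers were 9.13 to 9.49 on the KO arrays and 7.59, 7.72 and 9.60 on control replicates 1, 2 and 3. For 8 markers of monocytes and macrophages control replicate 2 had the highest mean of all arrays, 10.60. Control replicates 1 and 3 were at 8.469 and 8.425, and the KO arrays at 8.92 to 9.84. Control replicate 2 had the lowest mean over the 9 genes of stem and progenitor cells, 10.21. Control replicates 1 and 3 were at 10.70 and 11.55 there. The 8 markers of T and NK cells had means of 6.69 to 8.52 on the KO arrays and 6.41 to 7.57 on the control arrays. The part of these cells in the results below was not tested.

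The ribosome biogenesis genes differed little between KO and control LSK cells. With p-values adjusted over the whole array, none of the 39 members was below 0.05 (limma), and neither was any other named gene (0% of 30738). The unadjusted p was under 0.05 for 6 members. The adjusted p of the members ranged from 0.296 to 0.995. Their log2 fold changes (KO minus control) lay between -0.44 for Nop58 and 0.41 for Nip7, 22 below 0 and 17 above. The median was -0.04, against -0.03 over all named genes. No member had a fold change beyond 0.5 on the log2 scale in either direction, whereas 9.44% of all named genes did. For 38 of the 39 members (97.4%) the 95% confidence interval of the fold change lay within 2-fold in both directions, as it did for 88.9% of all named genes and for 82.1% of the 17803 named genes with a mean signal at or above that of the dimmest member. The exception was Nip7, whose interval reached 1.15 on the log2 scale. The interval lay within 1.5-fold for 26 members (66.7%), against 63.3% of all named genes. It did so for 9012 of the 17803 named genes with a mean signal at or above that of the dimmest member.

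At an unadjusted p under 0.05, 5 members were lower in the KO cells, which is 12.8% of those measured, against 6.83% of all named genes. These were Nop58, Dkc1, Nop2, Nolc1 and Npm1. A single member, Pno1, was higher, or 2.56%, against 4.58% of all named genes. Among the named genes with a mean signal at or above that of the dimmest member, 9.57% were lower and 6.85% higher. All 3 KO arrays lay below all 3 control arrays for 7 members (17.9%), the 5 above with Polr1b and Ubtf, and this held for 11.0% of all named genes. All KO arrays lay above all control arrays for Pno1 alone, against 5.82% of all named genes.

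**Figure D1:**
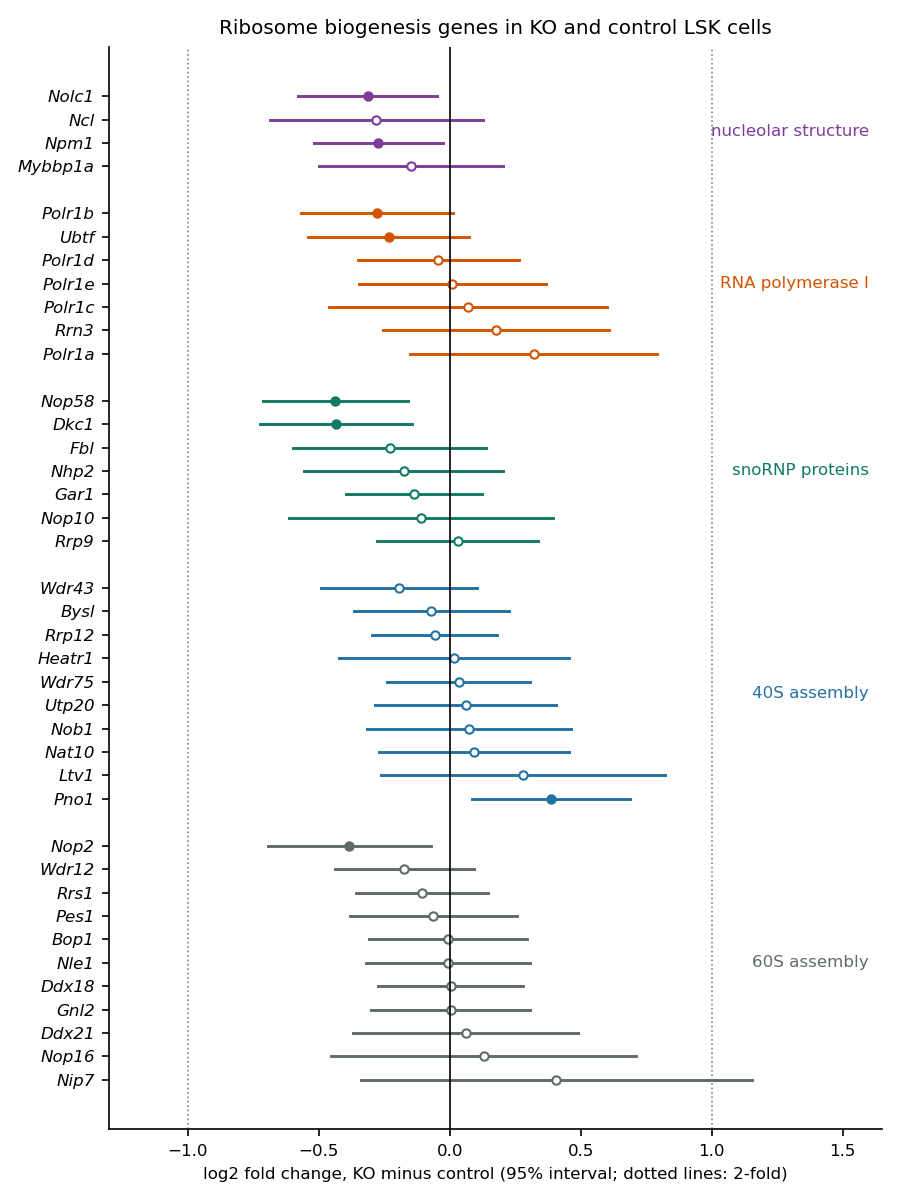
Log2 fold change (KO minus control) of the 39 measured genes in 5 role groups, with the 95% confidence interval from limma; filled points mark the 8 genes whose KO and control arrays did not overlap, and dotted lines mark 2-fold. All points lie between -0.44 and 0.41, and only the interval of Nip7 crosses a dotted line.

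The proteins of the snoRNPs held the largest differences toward lower signal. Nop58, a core protein of the box C/D snoRNPs that guide 2'-O-methylation of rRNA, had a log2 signal of 14.73, 14.68 and 14.70 on the KO arrays and of 15.28, 14.98 and 15.16 on the control arrays. The KO arrays lay close together and below every control array. The log2 fold change was -0.44 (standard error 0.12; unadjusted p = 0.00763 and adjusted p = 0.296 in limma), or 1.35-fold lower in the KO cells. Dkc1 encodes dyskerin, the pseudouridine synthase of the box H/ACA snoRNPs and a part of telomerase. It was at 12.23, 12.20 and 12.24 on the KO arrays and at 12.81, 12.47 and 12.69 on the control arrays, again without overlap, and its log2 fold change was -0.43 (standard error 0.12; unadjusted p = 0.00985 and adjusted p = 0.312 in limma). Nop58 and Dkc1 were the only members below an unadjusted p of 0.05 whichever of the 6 arrays was left out.

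The other 5 snoRNP proteins overlapped between the groups. Fbl, the methyltransferase fibrillarin of the box C/D particles, had a log2 fold change of -0.23. The partners of Dkc1 in the H/ACA core were at -0.18 for Nhp2, -0.14 for Gar1 and -0.11 for Nop10. Rrp9, a protein specific to the U3 snoRNP, was at 0.03. With Nop58 and Dkc1 the median of these 7 genes was -0.18.

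Among the 4 proteins of nucleolar structure all fold changes were below 0, with a median of -0.28. Nolc1, a chaperone of snoRNPs that shuttles between nucleolus and cytoplasm, had a log2 signal of 11.29, 11.19 and 11.16 on the KO arrays and of 11.62, 11.40 and 11.56 on the control arrays. The groups did not overlap, and the log2 fold change was -0.31 (standard error 0.11; unadjusted p = 0.0271 in limma). Npm1, which encodes nucleophosmin, an abundant protein of the outer nucleolar zone, was at 17.22, 17.08 and 17.22 on the KO arrays and at 17.48, 17.46 and 17.40 on the control arrays. Here the control arrays lay closer together than the KO arrays, and the log2 fold change was -0.27 (standard error 0.10; unadjusted p = 0.0340 in limma). Ncl, the gene of nucleolin, overlapped between the groups at -0.28, with control replicate 2 at 15.95 and below all KO arrays, and so did Mybbp1a, a nucleolar protein that binds Myb, at -0.15.

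RNA polymerase I and its factors had no member below an unadjusted p of 0.05, and their fold changes went in both directions. Polr1b, the second largest subunit, came nearest with 8.38, 8.39 and 8.46 on the KO arrays and 8.74, 8.50 and 8.82 on the control arrays. The groups were apart by 0.04 at the closest pair of arrays, and the log2 fold change was -0.28 (standard error 0.12; unadjusted p = 0.0585 in limma). Ubtf encodes the upstream binding factor UBF, which keeps the rRNA genes open for transcription. It was at 10.14, 10.10 and 10.14 on the KO arrays and at 10.58, 10.20 and 10.30 on the control arrays. Its groups did not overlap either, and the log2 fold change was -0.23 (standard error 0.13; unadjusted p = 0.116 in limma).

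Polr1a, the largest subunit, had a wider spread among the control arrays than among the KO arrays. It had 10.37, 10.39 and 10.45 on the KO arrays and 10.00, 9.74 and 10.51 on the control arrays, so that control replicates 1 and 2 lay below the KO arrays and control replicate 3 above them. The log2 fold change was 0.32 (standard error 0.20; unadjusted p = 0.152 in limma). Rrn3, which links the polymerase to its promoter factors, had the same order, with 10.76, 10.75 and 10.69 on the KO arrays and 10.50, 10.24 and 10.93 on the control arrays, at a log2 fold change of 0.18. The shared subunits of polymerases I and III, Polr1c and Polr1d, were at 0.07 and -0.04, and Polr1e, a subunit of polymerase I alone, at 0.01.

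The 10 factors of the small subunit had a median of 0.05 and 7 fold changes above 0. Pno1, an RNA binding protein that holds the end of the 18S rRNA until late maturation, had a log2 signal of 10.94, 10.97 and 10.72 on the KO arrays and of 10.40, 10.43 and 10.64 on the control arrays. KO replicate 3 and control replicate 3 came closest, and the groups did not overlap. The log2 fold change was 0.39 (standard error 0.13; unadjusted p = 0.0191 and adjusted p = 0.360 in limma), or 1.31-fold higher. Nob1, the nuclease that works beside Pno1 and cuts the 18S end, was at 0.07 with overlapping groups.

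Ltv1, a factor of late 40S assembly, was at 12.21, 12.33 and 12.15 on the KO arrays and at 11.78, 11.60 and 12.47 on the control arrays. As for Polr1a, control replicate 3 lay above all KO arrays and the other control arrays below them, at a log2 fold change of 0.28 (standard error 0.23). Of the early factors in the small subunit processome, Wdr43 was at -0.19, Heatr1 at 0.02, Wdr75 at 0.03 and Utp20 at 0.06. Nat10, which acetylates 18S rRNA, was at 0.09, Bysl at -0.07 and Rrp12, an export factor of the pre-40S particle, at -0.06.

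Of the 11 factors of the large subunit, Nop2 alone fell below an unadjusted p of 0.05. This methyltransferase of the large subunit rRNA had a log2 signal of 9.68, 9.78 and 10.00 on the KO arrays and of 10.12, 10.15 and 10.34 on the control arrays. The groups did not overlap, and the KO arrays spread more than the control arrays. The log2 fold change was -0.38 (standard error 0.13; unadjusted p = 0.0226 in limma). The PeBoW complex, which acts in maturation of the large subunit rRNAs, was at -0.17 for Wdr12, -0.06 for Pes1 and -0.01 for Bop1. Rrs1, which helps to bring in the 5S particle, was at -0.11, and Nle1, a late factor, at -0.01. The RNA helicases Ddx18 and Ddx21 were at 0.00 and 0.06, the GTPase Gnl2 at 0.00 and Nop16 at 0.13. Nip7 had the highest fold change of all members at 0.41 (standard error 0.31), with 9.82, 10.25 and 9.87 on the KO arrays and 9.75, 8.87 and 10.10 on the control arrays. Control replicate 2 was more than 0.8 below any other array for this gene, and the groups overlapped.

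**Figure D2:**
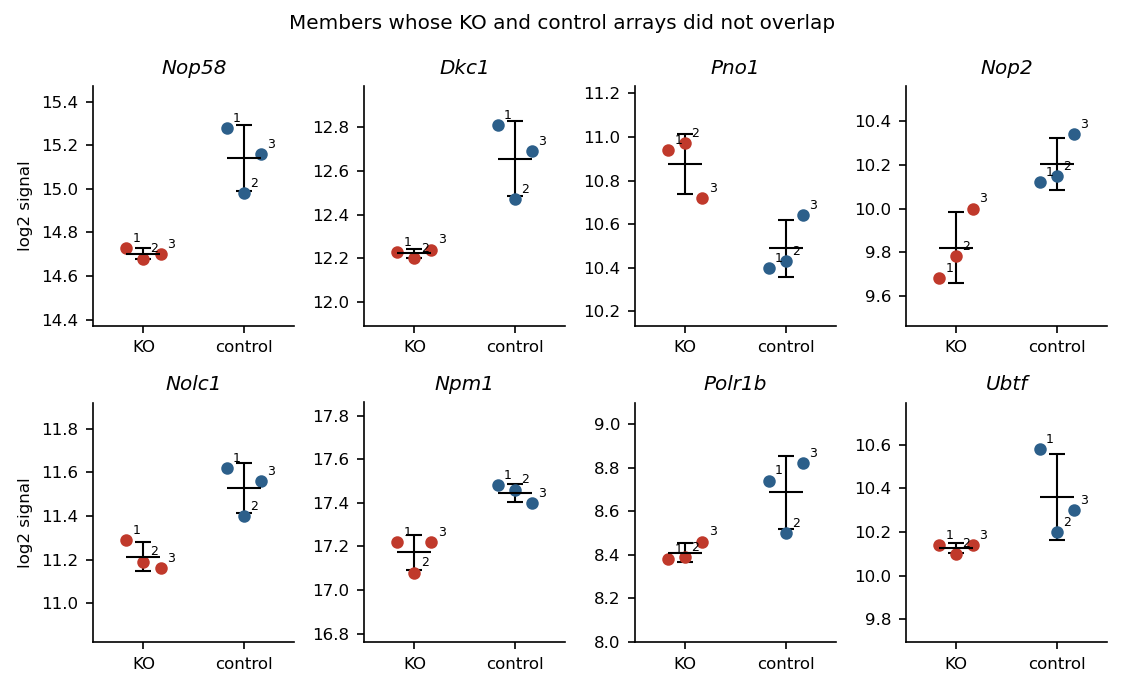
Log2 signal of the 8 genes whose KO (red, left) and control (blue, right) arrays did not overlap, in order of unadjusted p; points are arrays with their replicate number, and bars the mean and SD of 3 arrays. Every axis spans the same range, and the KO arrays of Nop58 and Dkc1 lie within 0.05 of each other.

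The KO arrays differed less from each other than the control arrays did for most of these genes. The SD of the log2 signal was larger among the control than among the KO arrays for 36 of 39 members (92.3%). This held for 61.8% of all named genes, and for 71.1% of those with a mean signal at or above that of the dimmest member. The median SD of the members was 0.067 among KO and 0.195 among control arrays, and over all named genes it was 0.13 among KO and 0.17 among control arrays. The 3 exceptions were Npm1, Pno1 and Nop2, all of them among the genes below an unadjusted p of 0.05. The SD reached 0.63 for Nip7 among control arrays and at most 0.24 among KO arrays, also for Nip7. Polymerase I had a median SD of 0.044 in KO and 0.250 in control arrays, and each of its 7 members was more variable in the controls.

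**Figure D3:**
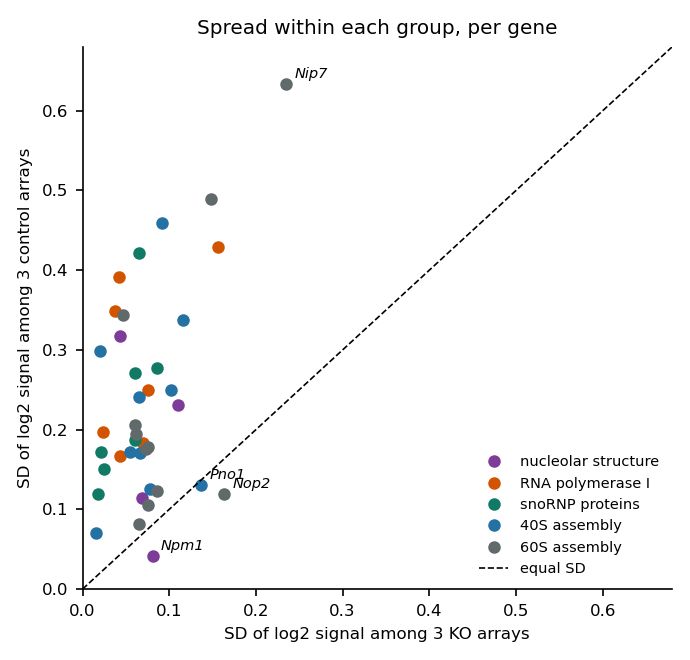
SD of the log2 signal among the 3 KO arrays (horizontal axis) and the 3 control arrays (vertical axis) for each of the 39 genes, coloured by role group; the dashed line marks equal SD. Of the genes, 36 lie above the line, Nip7 has the highest SD in both groups, and Npm1, Pno1 and Nop2 lie below the line.

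The spread of the controls had a common order. Control replicate 3 had the highest control signal for 27 of 39 members (69.2%), against 42.8% of all named genes, and control replicate 2 the lowest for 29 (74.4%), against 42.3%. The median of control replicate 3 minus the mean of control replicates 1 and 2 was 0.24 over the members and 0.04 over all named genes. Neither the spread nor this order was particular to the members. In the lists of further 40S and 60S factors described below, the same median was 0.34 and 0.22, and 46 of 48 and 36 of 46 genes had the larger SD in the controls. The subunits of polymerases III and II had medians of 0.24 and 0.36 and the larger control SD for 19 of 21 and 7 of 7 genes, while the ribosomal proteins were at 0.05 and 22 of 33. For 26 members (66.7%) all KO arrays lay between the lowest and the highest control array, which was the case for 23.5% of all named genes. As a deviation from the mean of all arrays, gene by gene, the median member was at -0.05, -0.04 and -0.01 on the KO arrays and at 0.01, -0.15 and 0.20 on the control arrays. Control replicate 2 was the lowest control array for all 7 members of the polymerase I group, and control replicate 3 the highest for 6 of them. Control replicate 3 is also the array that stood apart above, and control replicate 2 the one with the highest mean of monocyte markers. Genes of one array share its RNA and its labelling, and their common order is a description of these arrays.

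**Figure D4:**
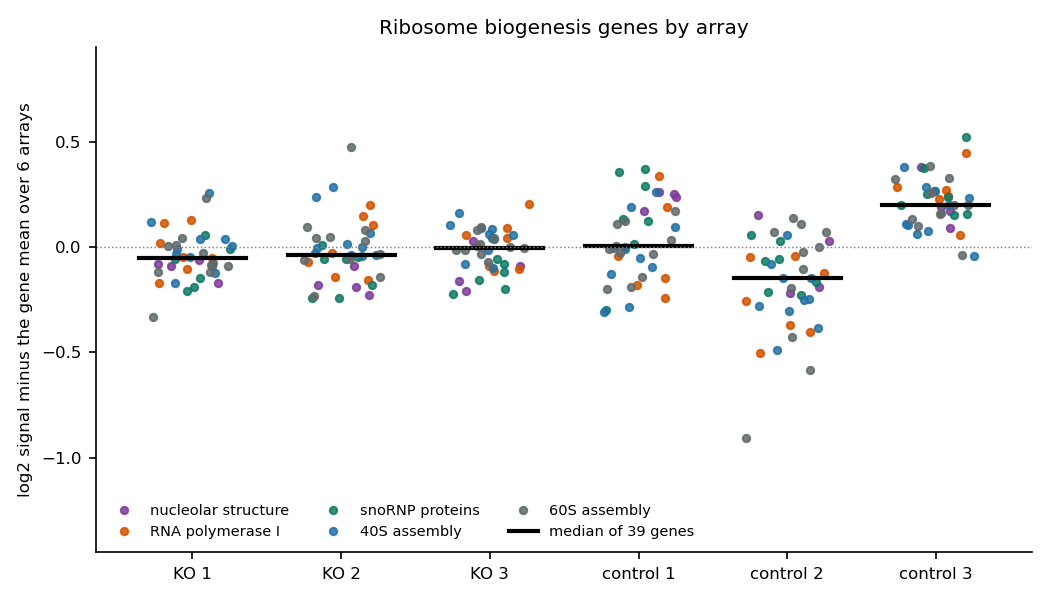
Log2 signal of each gene minus its mean over 6 arrays, by array, with KO arrays left and control arrays right; colours give the role group and black bars the median of 39 genes. The KO medians lie between -0.05 and -0.01, while control replicate 2 is at -0.15 and control replicate 3 at 0.20.

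The sign of the members' median depended on which control arrays were used. Without control replicate 3, 3 of 39 members were lower at an unadjusted p under 0.05 (Npm1, Nop58 and Dkc1), against 8.42% of all named genes. In the other direction 4 of 39 were higher (Pno1, Polr1a, Rrn3 and Ltv1), against 11.0% of all named genes. Both shares of the members lay slightly below those of all named genes. The median of the members was then 0.06. At an adjusted p under 0.05, 535 named genes were lower (1.74%) and 826 higher (2.69%) without this array, and no member passed it in either direction. Ltv1 and Polr1a came nearest with log2 fold changes of 0.54 and 0.53 (adjusted p = 0.0900 and 0.0977 in limma). Without control replicate 2, on the other hand, 8 members were lower, against 6.79% of all named genes, with Ncl, Fbl, Nhp2 and Polr1b added and Npm1 no longer among them. All KO arrays then lay below the remaining control arrays for 16 members, against 19.5% of all named genes, and the median was -0.12. With a block by the number in the sample descriptions, to which KO replicate 2 and control replicate 3 add nothing, no member was lower at an unadjusted p under 0.05 and the median was 0.06, although Nop58 was still at -0.42 and Dkc1 at -0.41.

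Members with an E-box in the promoter window did not stand to one side. For the 9 genes the log2 fold changes had a median of -0.01 and ranged from -0.38 for Nop2 to 0.39 for Pno1, and the 24 without one had a median of -0.02 and ranged from -0.44 to 0.41. The 2 E-box genes below an unadjusted p of 0.05, Nop2 and Pno1, differed in direction. Myc itself was at 13.43, 13.27 and 13.52 on the KO arrays and at 13.81, 13.94 and 13.73 on the control arrays, a log2 fold change of -0.42 (standard error 0.12; unadjusted p = 0.0104 and adjusted p = 0.316 in limma). Its groups did not overlap.

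Other genes of the pathway were read from lists that hold none of the members. In the transcription of rRNA genes, 2 of 11 measured genes were lower and 1 higher at an unadjusted p under 0.05 (18.2% and 9.1%), against 6.83% and 4.58% of all named genes. Znrd1, Polr2l and Polr2e, another shared subunit (0.46, with overlapping groups), had fold changes larger in size than those of the members. Znrd1, a small subunit of RNA polymerase I, was at 10.21, 10.27 and 10.42 on the KO arrays and at 11.63, 11.58 and 11.10 on the control arrays. The groups lay well apart, and the log2 fold change was -1.14 (standard error 0.17; unadjusted p = 0.000289 and adjusted p = 0.176 in limma), or 2.20-fold lower. Without control replicate 3 its fold change was -1.31 and its adjusted p 0.00820 (limma). Polr2l, a small subunit that all nuclear RNA polymerases share, went the other way, with 9.81, 9.74 and 9.65 on the KO arrays and 8.90, 8.89 and 9.12 on the control arrays. Its log2 fold change was 0.76 (standard error 0.12; unadjusted p = 0.00036 and adjusted p = 0.180 in limma), and 0.84 without control replicate 3 (adjusted p = 0.0224 in limma). Taf1a, a subunit of the promoter factor SL1, was at -0.40 (unadjusted p = 0.0219 in limma). The median of this list was -0.04.

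Of 10 measured genes of snoRNP assembly 1 was lower at an unadjusted p under 0.05 (10.0%, against 6.83% of all named genes) and none was higher. This was Naf1, which assembles the H/ACA particles before Gar1 joins, at -1.09 (unadjusted p = 0.00799 in limma). The 48 further genes of the small subunit processome and of 40S maturation had a median of 0.06, with 1 lower (2.1%; Rrp1b, -0.31) and 2 higher (4.2%; Imp3, 0.66, and Nol11, 0.35), shares below the 6.83% and 4.58% of all named genes. Rrp1b was counted in this list, although Rrp1 was counted among the genes of 60S assembly. Without control replicate 3, 9 of the 48 were higher and 1 lower, against 11.0% and 8.42% of all named genes, and the median was 0.19. The 46 further genes of 60S assembly had a median of -0.04, with 4 lower (8.7%, against 6.83% of all named genes) and none higher. They were Pelp1 (-0.41), Noc2l (-0.38), Nop53 (-0.35) and Rsl24d1 (-0.29).

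The lists next to ribosome assembly had 1 lower gene each and none higher, which is 7.7% of the exosome, 3.0% of the ribosomal protein, 4.8% of the polymerase III and 14.3% of the polymerase II genes, against 6.83% of all named genes. Among 13 measured genes of the RNA exosome, which trims rRNA precursors, Exosc8 was lower at -0.44 (unadjusted p = 0.00533 in limma) and the list median was -0.04. Of 33 measured cytosolic ribosomal protein genes out of 78 listed, 1 was lower, Rpsa at -0.30, and the median was -0.04, with all fold changes between -0.33 and 0.25. RNA polymerase III, which makes the 5S rRNA and tRNAs, had 1 lower gene of 21, Polr3g at -0.26, and a median of 0.02. The 7 measured subunits particular to RNA polymerase II had a median of 0.18 and 1 lower gene, Polr2a, the largest subunit, at -0.62 (unadjusted p = 0.0316 in limma). None of these genes passed an adjusted p under 0.05 with all 6 arrays.

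**Figure D5:**
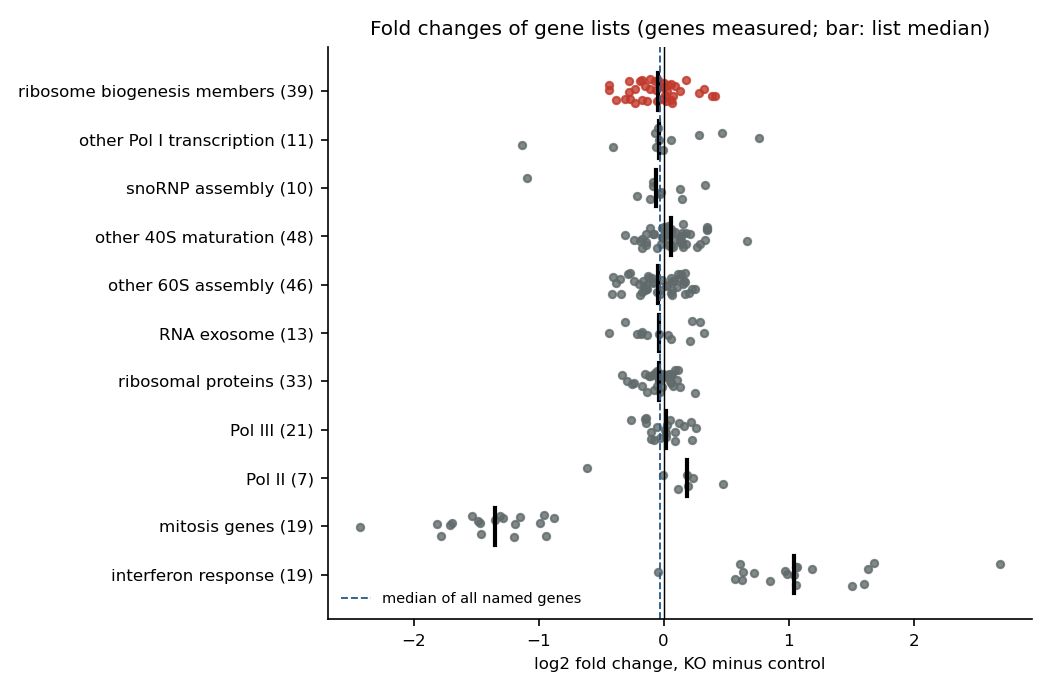
Log2 fold change (KO minus control) of the 39 ribosome biogenesis genes (red) and of genes in 10 other lists (grey), with the number of measured genes in parentheses; black bars are list medians and the dashed line the median of all named genes. The ribosome biogenesis lists lie around 0, whereas the mitosis genes have a median of -1.35 and the interferon response genes of 1.04.

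The size of these values can be set beside those of the mitosis and interferon lists in the same cells. Both lists were chosen with earlier results of these data known, so their counts are not an independent test. The study itself reported Plk1, Aurka and Cdk1 as down-regulated on these arrays. All 19 measured mitosis genes were lower at an unadjusted p under 0.05, against 6.83% of all named genes. Their median was -1.35, with fold changes from -2.43 for Plk1, a mitotic kinase, to -0.88 for Cenpe, a kinetochore motor. Of 19 interferon response genes 12 were higher, against 4.58% of all named genes, and the list median was 1.04. Without control replicate 3, 18 were higher, against 11.0% of all named genes, and only 3 or 4 without any other single array. Every mitosis gene thus lay below Nop58, the lowest ribosome biogenesis member at -0.44. No mitosis or interferon gene passed an adjusted p under 0.05 with all arrays either, and both lists moved with control replicate 3 as given above.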

How the data were processed

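Total RNA of FACS-sorted LSK cells from 3 KO and 3 control samples was hybridized to MTA-1.0 arrays. The authors normalized the arrays with SST-RMA (signal space transformation with robust multi-array averaging) and deposited log2 signals for 65956 probe sets, which were used as they stand. Array medians lay between 6.02 and 6.09, and 0 sample columns were left unused. The number of arrays limits the precision. Genes were named through the platform annotation, with 330 names updated from RefSeq: 31292 probe sets name 1 gene, 1522 several and 33142 none, and the probe set with the highest mean stands for a gene.

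The difference of KO minus control was fitted per probe set in limma 3.58.1 (under R 4.3.3) without a block, with Benjamini-Hochberg adjustment over all probe sets. The fit was tested on simulated data. An unadjusted p under 0.05 was used for counts, which are set beside the share of all named genes at the same p, and to choose the genes named. Alternatives were quantile normalization, median centring, probe sets above the median signal, a trended robust prior, array weights, averaging the probe sets of a gene, the methods' t-test, blocks by replicate or label number, and each array left out. The members and lists were chosen with earlier results of these data known. Values per array are given for members below an unadjusted p of 0.05 or whose groups do not overlap, and up to 4 genes are named per list; Polr1a, Rrn3, Ltv1 and Nip7 were added after their values were seen. Figures were drawn with matplotlib 3.10.9.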

Additional observations from a re-analysis of the deposited data

How the results depend on the processing

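No member passed an adjusted p under 0.05 in any of the settings tried. Of the 39 log2 fold changes, 21 kept their sign in every setting, and the 18 that did not were all of 0.13 or less in size. Quantile normalization, median centring, the filter on dim probe sets, the trended robust prior, the mean of probe sets and the methods' t-test gave 4 to 6 members lower at an unadjusted p under 0.05 and 1 higher, and no median above 0. With array weights, which gave control replicate 3 the lowest weight of 0.523, the median was -0.002, and Bop1 was at 0.0493 and Nle1 at 0.0417. With the replicate number as a block, 4 members were lower and 0 higher, with the median at -0.0433. KO and control arrays of the same replicate number deviated with correlations of 0.156, -0.171 and -0.169. The highest value was 0.281, for KO replicate 2 and control replicate 3. With 3 arrays per group these values cannot decide whether the replicate numbers pair the samples. The block by the number in the sample description, whose meaning is not stated, leaves KO replicate 2 and control replicate 3 with numbers of their own, and its 2 pairs correlated at 0.156 and 0.162. In that fit 0 members were lower and 3 higher, while the log2 fold changes of the 5 otherwise lower members lay between -0.25 (Npm1) and -0.42 (Nop58). The median was 0.06, and Nop10 (0.09), Bop1 (0.07), Pes1 (0.02), Polr1d (0.085) and Nle1 (0.065) were above 0.

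With single arrays left out, the members lower at an unadjusted p under 0.05 ranged from 2 to 8, those higher from 0 to 4, those with every KO array below every control from 7 to 16, and the median from -0.12 to 0.06. Nop2 left the lower members without KO replicate 1, KO replicate 2 or control replicate 3, Nolc1 without KO replicate 2, KO replicate 3, control replicate 1 or control replicate 3. Npm1 stayed among them when control replicate 3 was left out and left them with each of the other 5 arrays left out. Pno1 was no longer among the higher members without KO replicate 1, KO replicate 2, control replicate 1 or control replicate 2. The members whose sign turned ranged from -0.13 to 0.36 (Nop16), -0.29 to 0.12 (Nop10), -0.07 to 0.12 (Rrp9), -0.11 to 0.0467 (Bop1), -0.15 to 0.05 (Pes1), -0.10 to 0.31 (Polr1c), -0.12 to 0.06 (Polr1d), -0.12 to 0.13 (Polr1e), -0.0933 to 0.0817 (Gnl2), -0.14 to 0.16 (Ddx21), -0.0483 to 0.0717 (Ddx18), -0.065 to 0.18 (Utp20), -0.0317 to 0.0933 (Wdr75), -0.17 to 0.15 (Heatr1), -0.0067 to 0.23 (Nat10), -0.06 to 0.24 (Nob1), -0.16 to 0.0083 (Bysl) and -0.10 to 0.0917 (Nle1). Of these, 13 turned without control replicate 2 and 5 without control replicate 3. Polr1c, Ddx18 and Bysl turned without control replicate 1, and 8 members turned with a KO replicate left out. Some members turned in more than 1 of these settings.

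In the other lists the counts with an array left out ranged, for genes lower and then for genes higher, from 1 to 2 and 1 to 3 in polymerase I transcription, from 1 to 2 and 0 to 2 in snoRNP assembly, from 0 to 1 and 0 to 9 in the small subunit processome and 40S maturation, from 2 to 4 and 0 to 3 in 60S assembly, from 1 to 2 and 0 to 2 in the exosome, from 0 to 3 and 0 to 1 among ribosomal proteins, from 0 to 0 and 0 to 1 in polymerase III, and from 0 to 1 and 0 to 3 in polymerase II. The interferon response genes higher ranged from 3 to 18. The mitosis genes lower were 19 with all arrays and 19 without control replicate 3. No array left out changed this count by over 1.5 times. The causes of these changes in the counts were not tested.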
